A study of Mus musculus with 18 samples.

Results

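RelA(TA2) is a mutant of RelA, the main activating subunit of the transcription factor NF-κB, in which leucine and phenylalanine residues of the C-terminal transactivation region TA2 are replaced by alanine (L449A and F473A). The 4 libraries described here, of 18 in the series, are RelA(TA2) cells after 1 h of 5 ng/ml TNFα (2 libraries) and untreated RelA(TA2) cells (2 libraries), chosen by their sample titles. All cells of the series are immortalized mouse embryonic fibroblasts that lack their own rela gene (rela-/-) and were reconstituted with mouse RelA from a retroviral vector with puromycin resistance, so that RelA came from the vector and not from its own promoter. Whether a line was 1 clone or a pool is not given in the sources used here. The RelA(TA2) response was set beside that of RelA(Ser276Ala) cells, which carry RelA with a phosphorylated serine replaced by alanine (S276A), and of RelA(wt) cells, which carry the unmutated protein, each with 2 libraries after 1 h of TNFα and 2 untreated libraries. The study describes the replicates as independent.

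TNFα signals through its receptor to the IκB kinase, which leads to the loss of IκB proteins and lets NF-κB enter the nucleus. There RelA binds κB sites and interacts with coactivators, among them CBP and p300. The study found both coactivators on the target promoters it examined before TNFα, and proposes that they help to recruit RelA. The TA2 region contacts the TAZ1 domain of these coactivators, whereas the phosphorylated form of that serine contacts their KIX domain, and the series was made to ask which TNFα-activated genes need these contacts. TNFα also activates MAP kinases, which can induce immediate-early genes without NF-κB. Genes of both routes can respond in the same libraries, which do not show by which route a gene rose.

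RNA levels are given in FPKM (fragments per kilobase of transcript, scaled to the mapped fragments of the library), added up over the transcripts that the authors assembled on each gene. The 4 RelA(TA2) libraries held 27.6 M to 29.0 M mapped fragments. Each result was also read from the number of fragments behind the FPKM, recovered from the FPKM and its confidence limits and scaled to the fragments in genes. Replicate libraries had a median log2 SD over genes of 0.11 for FPKM and 0.063 for fragments. The 2 untreated RelA(TA2) libraries differed from each other more than any other pair. Their chi-square was 37.9 per degree of freedom over genes, against 13.0 to 25.2 in the other 8 conditions. Replicate 1 of them had 95.8% of its fragments in genes and replicate 2 had 98.4%. The value of 25.2 was that of RelA(Ser276Ala) cells at 1 h, where replicate 1 also had 95.8% and replicate 2 had 98.6%. A gene listed at 0 had no assembled transcript in that library, which can be a failed assembly. Fragments come from the same assembled transcripts, so such a gene is at 0 on both scales. The fibroblast markers Col1a1 (235 to 275 FPKM), Fn1 (597 to 767 FPKM) and Vim (1757 to 2208 FPKM) were high in all 4 libraries. Of 7 endothelial markers 5 were at 0 in all 4 libraries, as were 6 of 7 epithelial, 4 of 8 macrophage and 4 of 6 muscle markers. Of the fat cell markers 3 of 6 were at 0, and of the nerve cell markers 2 of the 5 annotated. Summed levels were 15.6 to 23.1 FPKM for the macrophage, 33.0 to 35.1 FPKM for the fat cell and 49.2 to 63.9 FPKM for the nerve cell markers. The epithelial sum was 2.57 and 25.97 FPKM at 1 h and 3.12 and 1.85 FPKM untreated, and no marker of these lists passed the test on either scale.

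Rela itself had 366 and 329 FPKM in RelA(TA2) cells at 1 h and 344 and 315 FPKM in untreated RelA(TA2) cells, a log2 difference of 0.08 (SE 0.10, adjusted p = 0.85). RelA(wt) cells had 187 and 182 FPKM at 1 h and 165 and 176 FPKM untreated, and RelA(Ser276Ala) cells had 211 and 175 FPKM at 1 h and 186 and 174 FPKM untreated. The RelA(TA2) libraries thus lay above all libraries of the other lines at these times. These are RNA levels, and the study reports that RelA(Ser276Ala) cells held clearly less RelA protein than RelA(wt) cells. The part of these RNA and protein levels in the differences between lines given here was not tested.

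At 1 h of TNFα, RelA(TA2) cells had a rapid response led by inhibitors of NF-κB, immediate-early transcription factors, growth factor ligands and chemokines. Of 12276 genes tested, 129 rose (1.05%) and 86 fell (0.701%), with limma on log2(FPKM + 0.5) and an adjusted p under 0.05. The rises were larger than the falls, since 100 of the 129 rose at least 2-fold and 30 of the 86 fell at least 2-fold on that scale. Over the 107 risen and 75 fallen genes above 0 in all 4 libraries, the median log2 changes were 1.37 and -0.71, beside -0.07 over all genes tested. On recovered fragments 442 genes rose (3.6%) and 837 fell (6.82%), so that the balance between rises and falls depended on the scale. Of the 129 risen genes 114 also rose on fragments, and 68 of the 86 fallen genes also fell. There were 77 risen and 30 fallen genes that kept their FPKM call whichever of the 4 libraries was left out, and 68 risen and 21 fallen genes that kept it on both scales. The list members Cxcl10, Csf3, Ccl7, Csf1, Il6, Jun, Junb, Ier3 and Klf10, and the genes named below for a call on fragments alone or to complete a count, lie outside the rule for named genes and were chosen after their values were seen. Without replicate 1 of the untreated cells the number of fallen genes was 257, and without replicate 2 it was 151. On fragments, 929 genes rose and 1474 fell without replicate 1 of the untreated cells, 260 rose and 354 fell without replicate 1 of the 1 h cells, and 311 rose and 458 fell without replicate 2 of the 1 h cells.

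The inhibitors of NF-κB and their partners held the largest rise among genes above 0 in all 4 libraries. Tnfaip3, which encodes the ubiquitin-editing inhibitor A20, had 167 and 158 FPKM in RelA(TA2) cells at 1 h and 5.94 and 6.77 FPKM in untreated RelA(TA2) cells. Its log2 change was 4.58 (SE 0.25, adjusted p = 3.83e-06). Nfkbia, which encodes IκBα, had 193 and 190 FPKM at 1 h and 14.3 and 17.1 FPKM untreated, a rise of 3.57 (SE 0.32, adjusted p = 1.49e-04). Nfkbiz, which encodes the nuclear protein IκBζ, had 21.0 and 27.4 FPKM at 1 h and 5.26 and 3.70 FPKM untreated, and rose by 2.32. For each of these genes both treated libraries lay far above both untreated ones. These were the 3 of 18 tested genes in the list of IκB proteins, NF-κB subunits and A20 partners that passed the FPKM test, none fell, and the median change of the list was 0.07. On fragments Bcl3, Nfkb2, Relb and Rel rose as well, by 1.26, 0.50, 0.84 and 1.82. The FPKM change of Nfkb2 was -0.64 (adjusted p = 0.46) and that of Rel was -0.03 (adjusted p = 1.00), so their rise was seen on fragments only. At 2 h, Tnfaip3 was at 26.2 and 31.2 FPKM and Nfkbia at 75.4 and 87.5 FPKM, between their levels at 0 h and 1 h.

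**Figure D1:**
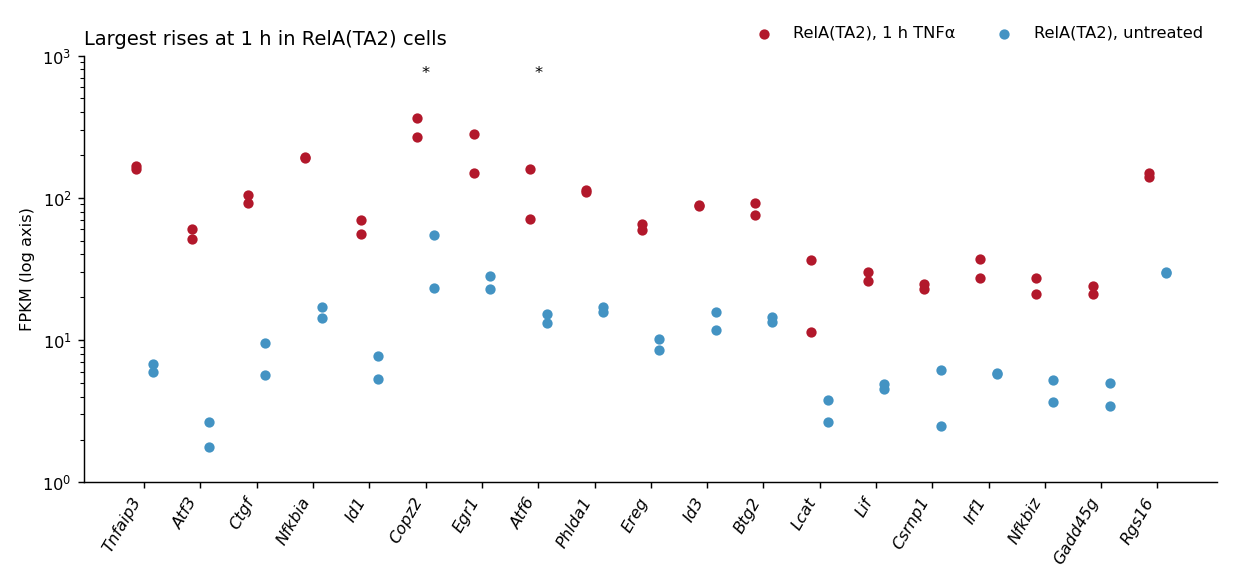
FPKM on a log axis in each RelA(TA2) library for 19 of the 20 largest rises at 1 h of TNFα, with the 1 h libraries (red) left of the untreated libraries (blue). Asterisks mark Copz2 and Atf6, which did not pass the test on recovered fragments. In every gene drawn both red points lie above both blue points, as the choice of genes required.

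The bases before the transcription start are shown for some of the risen genes, because NF-κB and the kinase-driven factors read different sites. The windows were chosen by hand and each holds a match, so they do not stand for the risen genes as a set. Atf3, Ctgf, Id1, Egr1 and Ereg, which rose more than Plk2 and Areg, are not shown. The letters are from RefSeq (GRCm38.p6, the build to which the authors mapped as mm10), run 5′ to 3′ on the gene's strand, and have in capitals each match to the κB consensus, the AP-1 site (TGANTCA), the cyclic AMP response element (TGACGTCA) or the CArG box of serum response factor, on either strand. In Tnfaip3, Nfkbia, Cxcl1, Ccl20 and Lif they include κB consensus matches.
Tnfaip3, chr10:19015411-19015560, minus strand: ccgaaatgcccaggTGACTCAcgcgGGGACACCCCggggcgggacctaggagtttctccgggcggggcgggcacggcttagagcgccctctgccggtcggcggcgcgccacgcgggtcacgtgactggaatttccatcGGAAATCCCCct
Nfkbia, chr12:55492648-55492747, minus strand: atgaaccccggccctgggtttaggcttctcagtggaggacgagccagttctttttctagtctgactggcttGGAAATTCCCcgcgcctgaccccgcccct
Cxcl1, chr5:90891125-90891224, plus strand: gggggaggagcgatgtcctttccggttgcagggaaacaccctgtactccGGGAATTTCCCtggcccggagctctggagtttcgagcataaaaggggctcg
Ccl20, chr1:83116646-83116745, plus strand: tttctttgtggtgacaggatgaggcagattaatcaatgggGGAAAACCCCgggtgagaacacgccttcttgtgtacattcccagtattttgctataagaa
Lif, chr11:4257328-4257427, plus strand: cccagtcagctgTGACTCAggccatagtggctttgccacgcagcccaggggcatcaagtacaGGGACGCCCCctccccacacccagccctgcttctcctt

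Tnfaip3 and Lif also hold an AP-1 match. The capitals of Cxcl1 are 2 κB matches on opposite strands, shifted by 1 base. The other 4 promoters shown held no κB match but a cyclic AMP response element or, in Dusp5, adjacent CArG boxes.
Btg2, chr1:134079266-134079365, minus strand: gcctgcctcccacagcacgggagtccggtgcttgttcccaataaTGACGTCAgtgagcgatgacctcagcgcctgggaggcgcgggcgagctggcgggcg
Areg, chr5:91139489-91139588, plus strand: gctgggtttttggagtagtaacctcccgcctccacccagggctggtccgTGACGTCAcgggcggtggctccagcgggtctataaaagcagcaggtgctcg
Plk2, chr13:110394934-110395033, plus strand: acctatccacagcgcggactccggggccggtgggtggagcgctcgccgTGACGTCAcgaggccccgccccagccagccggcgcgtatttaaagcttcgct
Dusp5, chr19:53529025-53529124, plus strand: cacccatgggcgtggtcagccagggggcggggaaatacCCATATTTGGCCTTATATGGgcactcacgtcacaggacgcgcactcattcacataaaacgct

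A promoter of 300 bases (250 before and 50 after the start) was matched for 90 of the 129 risen genes and 9774 of the 12276 genes tested. Of the 117 promoters of the risen genes 14 (11.97%) held a κB match, beside 10.5% of the 12509 promoters of all genes tested. The corresponding shares were 10.3% and 5.24% for the AP-1 site, 7.69% and 2.97% for the cyclic AMP response element, and 4.27% and 1.24% for the CArG box. Of the 92 promoters of the fallen genes 15 (16.3%) held a κB match, a higher share than among the risen genes. Shares among the fallen genes were 2.17% for the AP-1 site, 3.26% for the cyclic AMP response element and 0% for the CArG box. These shares are a description of the letters in these windows and were not tested.

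Cytokines and chemokines, the signals that recruit and instruct leukocytes, included several genes listed at 0 before TNFα. Of 25 tested members 9 rose and none fell, with a median change of 0.87. Cxcl1, a neutrophil chemokine, had 43.6 and 51.7 FPKM in RelA(TA2) cells at 1 h and was listed at 0 in both untreated RelA(TA2) libraries. Ccl20, which attracts cells with the receptor CCR6, had 7.07 and 6.58 FPKM at 1 h and was listed at 0 in both untreated libraries. Il23a, a subunit of interleukin 23, had 2.81 and 2.89 FPKM at 1 h and was listed at 0 untreated. All of these passed the test (adjusted p of 2.85e-07 for Cxcl1, 2.11e-06 for Ccl20 and 0.0022 for Il23a). Cxcl10 (2.93 and 2.64 FPKM at 1 h) and Csf3 (2.06 and 4.56 FPKM at 1 h) were likewise at 0 in both untreated libraries and passed.

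Other members were already expressed before TNFα. Lif, a cytokine of the interleukin 6 family, had 30.1 and 25.8 FPKM at 1 h and 4.90 and 4.56 FPKM untreated, and rose by 2.44 (SE 0.16, adjusted p = 1.39e-05). Ccl2, a monocyte chemokine, had 982 and 659 FPKM at 1 h and 201 and 215 FPKM untreated, and rose by 1.95. Ccl7 and Csf1, the growth factor of macrophages, rose by 1.01 and 0.71. At 2 h Ccl2 stood higher still, at 1503 and 1717 FPKM, and Csf1 at 137 and 150 FPKM. Il6 was listed at 0 untreated and had 1.15 and 1.47 FPKM at 1 h, with an adjusted p of 0.17, and rose by 1.56 on fragments (adjusted p = 0.021).

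Immediate-early factors rose as a broad group. Of 31 tested members 14 rose (45.2% of the list) and none fell, with a median change of 1.40, and on fragments 27 of the 31 rose. Atf3, a stress-induced basic leucine zipper factor, had 51.6 and 60.8 FPKM at 1 h and 1.78 and 2.66 FPKM in untreated RelA(TA2) cells, and rose by 4.40 (SE 0.27, adjusted p = 9.48e-06). Egr1, a zinc finger factor induced through MAP kinases, had 150 and 279 FPKM at 1 h and 22.9 and 28.0 FPKM untreated, and rose by 2.99 (SE 0.27, adjusted p = 1.49e-04). Btg2, which restrains proliferation, had 75.3 and 91.5 FPKM at 1 h and 13.4 and 14.5 FPKM untreated, and rose by 2.53. Fos, the partner of Jun in AP-1, had 5.43 and 3.17 FPKM at 1 h and was listed at 0 in both untreated libraries. Jun (1.30), Junb (1.73), Ier3 (1.99), Klf6 (1.43) and Myc (0.92) rose by the log2 amounts given. At 2 h Egr1 was at 6.13 and 5.20 FPKM and Btg2 at 9.60 and 11.5 FPKM, both below the untreated libraries.

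The feedback inhibitors of MAP kinase signalling rose with them, 7 of 18 tested, with a median change of 0.46. Rgs16, an inhibitor of G protein signalling, had 150 and 140 FPKM at 1 h and 29.7 and 30.2 FPKM untreated, and rose by 2.26 (SE 0.15, adjusted p = 1.65e-05). The MAP kinase phosphatases Dusp5, Dusp10 and Dusp4 rose by 1.98, 1.28 and 0.65, and Spry2, an inhibitor of receptor tyrosine kinase signalling, by 1.37. Among ligands of the EGF receptor, Ereg (epiregulin) had 59.7 and 65.8 FPKM at 1 h and 10.2 and 8.56 FPKM untreated, and rose by 2.68 (SE 0.16, adjusted p = 7.05e-06). Hbegf, the heparin-binding ligand, had 44.4 and 34.3 FPKM at 1 h and 11.7 and 9.66 FPKM untreated and rose by 1.83, and Areg (amphiregulin) had 17.97 and 17.6 FPKM at 1 h and 5.23 and 5.48 FPKM untreated and rose by 1.64. These were 3 of the 6 genes tested in that list. On fragments 10 of the 18 feedback inhibitors rose and Dusp7 fell, and in the EGF receptor list Erbb2 fell.

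Targets of YAP, serum response factor and the cytoskeleton included 5 risen genes of 21, with a list median of 0.15. Ctgf, a matrix-associated growth factor, had 104 and 92.4 FPKM at 1 h and 5.67 and 9.54 FPKM in untreated RelA(TA2) cells, and rose by 3.65 (SE 0.51, adjusted p = 0.0039). Rnd1 (1.66), Thbs1 (1.44), Rhob (1.39) and Ankrd1 (1.37) also rose. Id1, an inhibitor of basic helix-loop-helix factors, had 69.8 and 56.1 FPKM at 1 h and 7.68 and 5.29 FPKM untreated. It rose by 3.19, and Id3 by 2.65. They were the only 2 of 13 BMP and TGF-β targets past the FPKM test, while on fragments Id2, Id4, Smad7 and Skil rose too and Ski and Tgfb3 fell. Among adhesion molecules, matrix proteases and the plasminogen system 4 of 17 rose on FPKM, among them Plau, the urokinase gene, by 1.45. On fragments 7 rose, and Timp2, an inhibitor of metalloproteinases, fell. Sele, which encodes E-selectin, had 33.1 and 14.5 FPKM at 1 h and 2.71 and 0 FPKM untreated, and passed with an adjusted p of 0.048.

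In several other lists 1 or 2 members passed the FPKM test, and in most of these lists more did on fragments. Irf1, an interferon regulatory factor, had 36.9 and 27.5 FPKM at 1 h and 5.77 and 5.84 FPKM untreated and rose by 2.36, while the other 18 tested interferon-stimulated and antigen-processing genes did not pass on FPKM. On fragments Ifit1 and Gbp2 rose as well and Irf9 fell. Ptgs2, which encodes cyclooxygenase 2, had 170 and 184 FPKM at 1 h and 82.5 and 32.1 FPKM untreated, a rise of 1.77 (SE 0.32, adjusted p = 0.017). On fragments, which were nearly equal in the 2 untreated libraries, it rose by 2.59. Cited2 (1.39), a protein that binds the same TAZ1 domain as TA2, and Ets1 (0.99) rose among 17 CBP, p300 and TAZ1-related genes, whose median was -0.12. Plk2 (1.74) and Pmaip1 (0.88) rose among 20 p53 targets, Adm (1.19) and Hk2 (0.96) among 16 hypoxia and glycolysis genes, Ppp1r15a (1.00) in the stress response list, Zfp36l1 (0.83) among 12 regulators of mRNA decay, Ch25h (2.25) among 8 acute-phase and innate defence genes, Gadd45b (1.00) among 17 regulators of cell death and Hist1h1c (2.05) among 5 histone genes. On fragments 7 of the p53 targets rose and 2 fell, 5 of the cell death regulators rose and 2 fell, 3 of the CBP, p300 and TAZ1-related genes rose and 2 fell, 3 of the 14 stress response genes rose and 1 fell, and 3 of the hypoxia and glycolysis genes rose and 1 fell. The regulators of mRNA decay and the histone genes each had 2 members that rose and none that fell on fragments. Over all genes tested 3.6% rose and 6.82% fell on fragments, and some of the counts in these lists lie near those shares. Of the 20 genes from the TNF receptor to the IκB kinase none rose on FPKM, while on fragments Map3k8 rose and Tnfrsf1a, Tab1 and Map3k14 fell. Mapk14, which encodes the p38α kinase, was past the test as a fall on FPKM (-1.05, adjusted p = 5.77e-05) with a fragment change of -0.08 (adjusted p = 0.32). The falls in other lists were those of Atf4, Mmp2 and Cebpd, whose values are given below. No tested member of the clock (11), cholesterol (10), cell cycle (19), matrix and fibroblast (19), heat shock (10) or ribosomal protein (14) lists passed the limma test, and 1, 2, 1, 3, 2 and 0 of them had an unadjusted p under 0.05. On fragments Per1, Lox and Dnajb1 rose and Tef, Pdgfra and Pdgfrb fell among them, and none passed in the cholesterol, cell cycle and ribosomal protein lists.

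**Figure D2:**
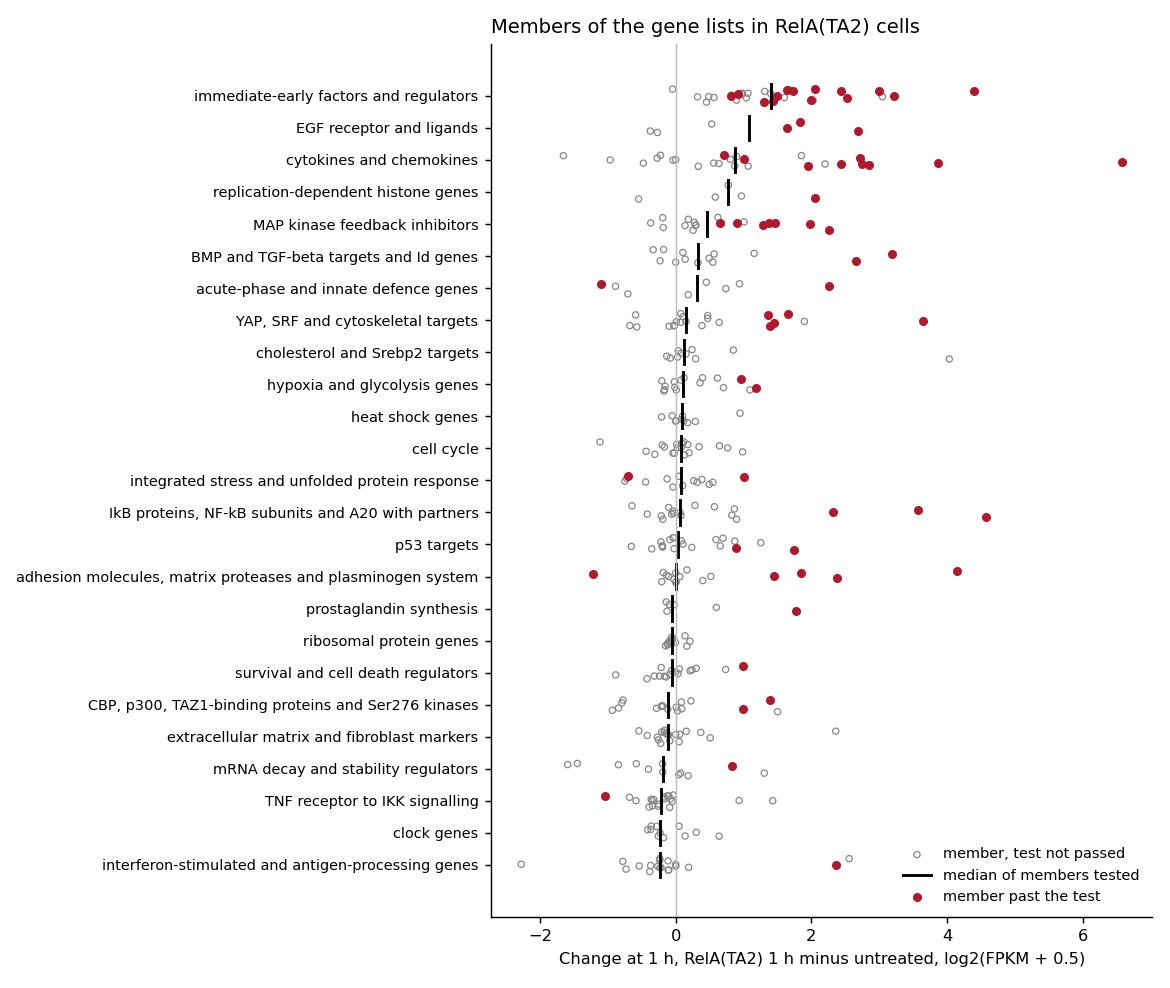
Change at 1 h in RelA(TA2) cells (RelA(TA2) 1 h minus untreated, log2 of FPKM + 0.5) of every tested member of 25 gene lists, ordered by the list median. Red points passed the test, open points did not, and black bars are medians. The immediate-early list has the highest median, 1.40, and most lists are centred close to 0.

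The falls on FPKM were mostly small, with 30 of 86 at least 2-fold. The 12 largest falls among genes above 0 in all 4 libraries were those of Vill, Brd1, 5830415F09Rik, Dse, Man1a2, Vti1a, Ephb3, Mmp2, Sertad3, Aqr, 6230427J02Rik and Cebpd. Only 4 of them also fell on fragments. Sertad3, a transcriptional regulator, had 3.05 and 2.27 FPKM at 1 h and 6.57 and 6.46 FPKM untreated, and fell by 1.16 (SE 0.16, adjusted p = 0.0034). Ephb3, an ephrin receptor, had 3.64 and 3.72 FPKM at 1 h and 12.1 and 7.36 FPKM untreated, and fell by 1.25. The others that held were 6230427J02Rik and Brd1, a chromatin reader of the bromodomain family. Mmp2, by contrast, a gelatinase of the matrix, had 12.4 and 13.2 FPKM at 1 h and 25.8 and 36.0 FPKM untreated, but a fragment change of -0.08 (adjusted p = 0.79). Cebpd, a C/EBP transcription factor, had 13.2 and 14.8 FPKM at 1 h and 25.6 and 36.8 FPKM untreated, and a fragment change of -0.40 (adjusted p = 0.18).

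Further falls are named although they lie outside the rule for named genes and were chosen after their values were seen. They kept their call on both scales whichever of the 4 libraries was left out. Bmf, which promotes apoptosis, was listed at 0 in both RelA(TA2) libraries at 1 h and had 4.66 and 4.63 FPKM in both untreated libraries. Lrrc32, which encodes the TGF-β docking protein GARP, had 18.1 and 17.7 FPKM at 1 h and 37.0 and 35.2 FPKM untreated, and fell by 0.99 (SE 0.08, adjusted p = 5.71e-05). Ccng2, a cyclin associated with growth arrest, and Tob2, an antiproliferative protein, fell by 0.90 and 0.80.

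Summed FPKM and fragments gave different answers for some genes, 15 of the 129 risen and 18 of the 86 fallen. Copz2 had 266 and 366 FPKM at 1 h and 23.2 and 54.6 FPKM untreated, a rise of 3.11 (SE 0.51, adjusted p = 0.010), yet its fragment change was -0.12 (adjusted p = 0.72). Atf6, a sensor of the unfolded protein response, rose by 2.86 on FPKM with a fragment change of -0.09, and Tfeb rose by 2.15 on FPKM and fell by 0.70 on fragments. AY074887 passed the test on both scales. It had 724 and 699 FPKM at 1 h and was at 0 in every other library of the lines compared. Its fragment change was 1.37, and no change was left when transcripts under 300 bases were dropped. Snora61, joined with a neighbouring gene, had 312 FPKM in 1 library at 1 h and 8.02 FPKM in the other. Of the 8 genes with the highest 1 h level among the 19 risen genes at 0 in both untreated libraries, Kdelr3 and Prpf39 lay at similar FPKM in other untreated lines (15.8 and 16.6 FPKM for Kdelr3 in RelA(Ser276Ala) cells, 22.1 and 15.2 FPKM for Prpf39 in RelA(wt) cells), so that a failed assembly in the untreated RelA(TA2) libraries and a rise cannot be told apart. Cr2 was likewise listed at 6.83 and 4.60 FPKM in untreated RelA(Ser276Ala) cells. Cxcl1, Ccl20 and Fos were at 0 in the untreated libraries of all 3 lines. The risen genes counted above as keeping their call on both scales include AY074887 and Prpf39.

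**Figure D3:**
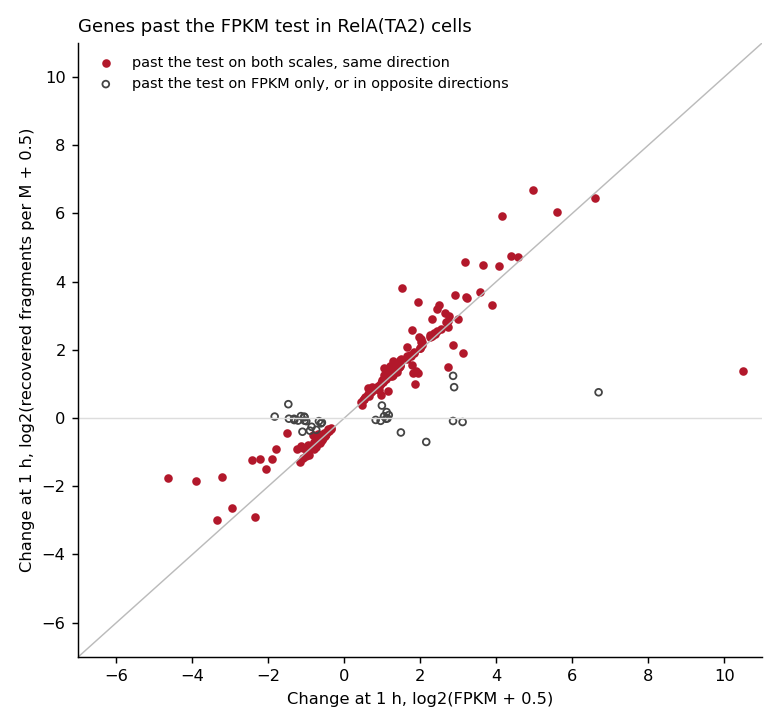
Change at 1 h of the 215 genes past the FPKM test in RelA(TA2) cells, on log2 of FPKM + 0.5 (x axis) and on log2 of scaled recovered fragments + 0.5 (y axis). Most genes lie on the diagonal, and open points past 1 on the x axis but close to 0 on the y axis are genes such as Copz2 and Atf6.

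The response of RelA(TA2) cells was then compared with that of RelA(wt) cells, to ask which genes respond less when TA2 is mutated. The comparison was the log2 change at 1 h in RelA(TA2) cells minus that in the other line, so that a larger response includes a gene that fell less. In RelA(wt) cells 124 genes rose (1.01%) and 59 fell (0.481%). Both lines shared 68 risen genes, 52.7% of those risen in RelA(TA2) cells and 54.8% of those risen in RelA(wt) cells. They shared 13 fallen genes, 15.1% and 22.03% of the fallen genes of each line. The response was smaller in RelA(TA2) cells for 19 genes (0.155%) and larger for 14 (0.114%) on FPKM. On fragments it was smaller for 146 genes (1.19%) and larger for 75 (0.611%). Without replicate 1 of the untreated RelA(TA2) cells, 109 genes had a smaller and 72 a larger response on FPKM, and without any other library of the 2 lines these counts were 24 to 86 and 24 to 75. On fragments they were 987 and 748 without replicate 1 of the untreated RelA(TA2) cells, and 52 to 98 and 21 to 69 without another RelA(TA2) library.

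Of the 19 genes with a smaller response, 12 were also smaller on fragments, and 8 kept the call on both scales whichever RelA(TA2) library was left out. These 8 were Amdhd2, Tnfsf9, Ccl20, Cxcl10, Egr1, Klf6, Myc and Rnd3.

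Amdhd2 and Tnfsf9 did not pass the test at 1 h in RelA(TA2) cells, with changes of -0.12 (adjusted p = 0.64) and -0.04 (adjusted p = 0.99). Amdhd2, an enzyme of amino sugar metabolism, had 34.7 and 33.8 FPKM in RelA(TA2) cells at 1 h and 35.2 and 39.3 FPKM untreated, against 139 and 132 FPKM in RelA(wt) cells at 1 h and 32.6 and 37.4 FPKM untreated. The difference in response was -2.06 (adjusted p = 1.63e-05) on FPKM and -2.21 on fragments. Amdhd2 was joined with a neighbouring gene in the assembly of at least 1 library. Tnfsf9, which encodes the T cell costimulatory ligand 4-1BBL, had 15.7 and 15.0 FPKM in RelA(TA2) cells at 1 h and 14.4 and 17.3 FPKM untreated, against 44.5 and 42.0 FPKM in RelA(wt) cells at 1 h and 8.95 and 8.68 FPKM untreated, a difference of -2.27 (adjusted p = 9.13e-04). In RelA(Ser276Ala) cells Amdhd2 had 34.9 and 34.4 FPKM at 1 h and 31.1 and 32.9 FPKM untreated. There Tnfsf9 had 10.8 and 9.36 FPKM at 1 h and 8.77 and 10.9 FPKM untreated. The times overlapped for Tnfsf9 in both mutant lines, whereas the 1 h libraries of Amdhd2 lay slightly below the untreated ones in RelA(TA2) cells and slightly above them in RelA(Ser276Ala) cells.

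Ccl20 and Cxcl10 reached lower levels in RelA(TA2) cells. Ccl20 reached 7.07 and 6.58 FPKM in RelA(TA2) cells at 1 h against 42.6 and 36.0 FPKM in RelA(wt) cells, and Cxcl10 reached 2.93 and 2.64 FPKM against 26.1 and 73.6 FPKM. Both were at 0 untreated in both lines. The differences in response were -2.44 (adjusted p = 0.0039) and -3.76 (adjusted p = 0.017). Csf2, the granulocyte and macrophage growth factor, was listed at 1.24 and 0 FPKM in RelA(TA2) cells at 1 h and 14.04 and 13.1 FPKM in RelA(wt) cells (adjusted p = 0.048), and the adhesion molecule gene Icam1 at 0 in both RelA(TA2) libraries and 3.59 and 2.55 FPKM in RelA(wt) cells (adjusted p = 0.036). At 2 h Icam1 was listed at 1.65 and 3.72 FPKM in RelA(TA2) cells. Of the 25 tested cytokines and chemokines 4 had a smaller response and none a larger one, with a median difference of -1.03. On fragments 10 were smaller, and Cxcl1, Lif, Il23a, Cxcl2 and Tnf were among them (differences of -1.90, -1.06, -2.53, -3.54 and -2.31). Against RelA(Ser276Ala) cells no member of this list differed on FPKM, with a median difference of 0.12. Fragments gave 1 larger and 1 smaller response there, with a median of 0.08. The smaller response of the list was thus not particular to RelA(TA2) cells.

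Egr1, Klf6, Myc and Rnd3 had a smaller step in RelA(TA2) cells. Egr1 had 150 and 279 FPKM in RelA(TA2) cells at 1 h and 22.9 and 28.0 FPKM untreated, against 597 and 700 FPKM in RelA(wt) cells at 1 h and 13.5 and 15.5 FPKM untreated, a difference in response of -2.44 (adjusted p = 0.024). Klf6, a Krüppel-like factor, had 109 and 129 FPKM in RelA(TA2) cells at 1 h and 46.1 and 41.1 FPKM untreated, against 184 and 192 FPKM in RelA(wt) cells at 1 h and 31.8 and 32.0 FPKM untreated (-1.11, adjusted p = 0.0099). Myc, a driver of growth, had 59.3 and 66.6 FPKM in RelA(TA2) cells at 1 h and 32.7 and 33.1 FPKM untreated, against 91.0 and 78.4 FPKM in RelA(wt) cells at 1 h and 17.8 and 19.7 FPKM untreated (-1.22, adjusted p = 0.019). In these 3 genes the untreated RelA(TA2) libraries lay above the untreated RelA(wt) libraries, and the 1 h libraries lay below. Rnd3, which acts on the actin cytoskeleton, differed by -1.12 with a change of 0.47 in RelA(TA2) cells that did not pass the FPKM test (adjusted p = 0.081). Atf4, the central factor of the integrated stress response, moved in opposite directions: it had 241 and 243 FPKM in RelA(TA2) cells at 1 h and 359 and 430 FPKM untreated, a fall of 0.70 (adjusted p = 0.030). In RelA(wt) cells it had 333 and 328 FPKM at 1 h and 209 and 235 FPKM untreated (0.58, adjusted p = 0.087), and the difference in response was -1.27 (adjusted p = 0.024). Against RelA(Ser276Ala) cells the response of Egr1, Klf6, Myc and Atf4 did not pass the test of the difference on either scale. That of Rnd3 did not pass on FPKM.

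**Figure D4:**
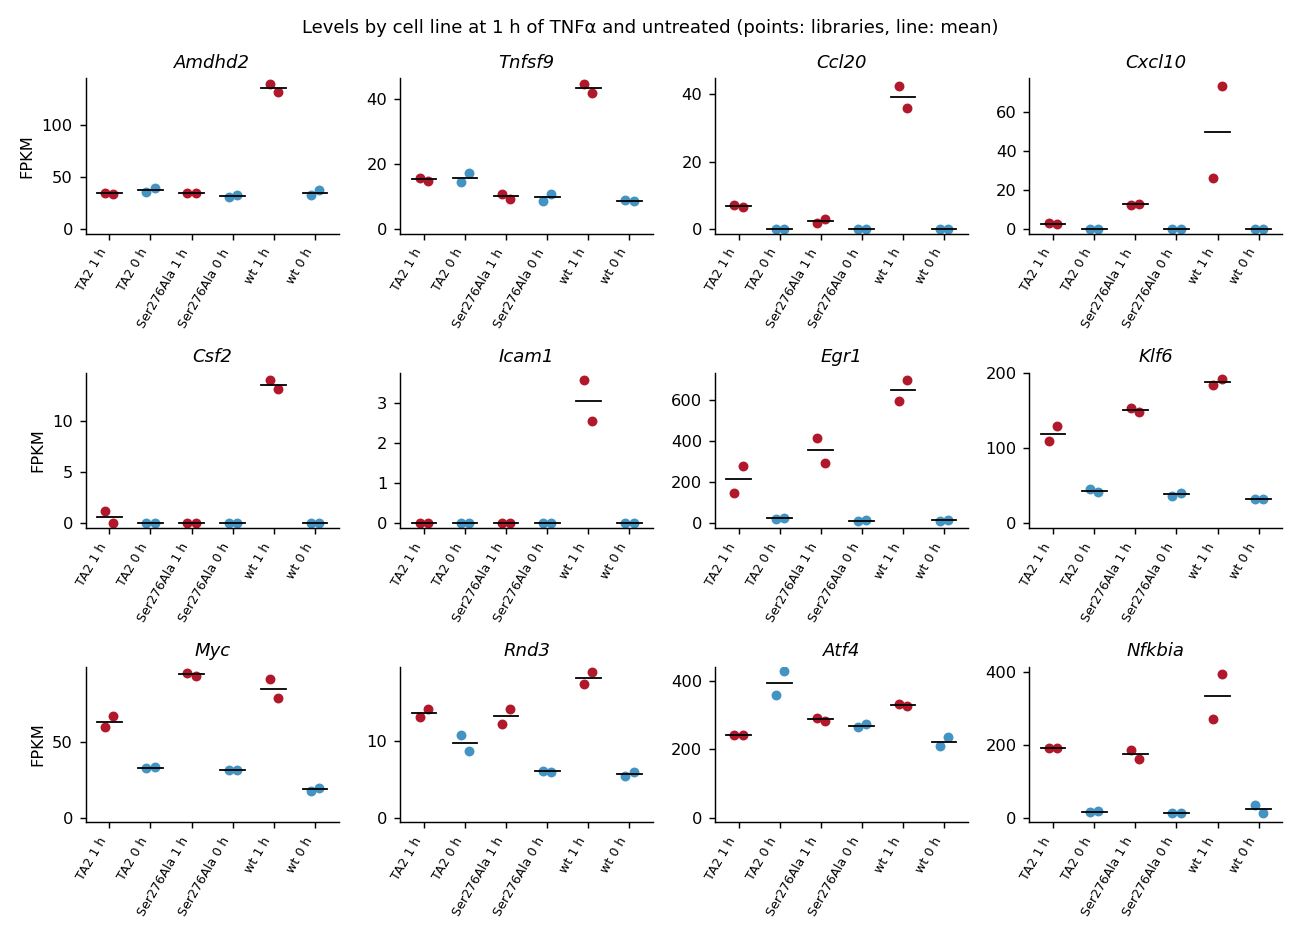
FPKM in each library (points) with the mean of 2 libraries (line) for 12 genes, in RelA(TA2), RelA(Ser276Ala) and RelA(wt) cells, with 1 h of TNFα in red left of untreated in blue. Amdhd2 and Tnfsf9 are high only in RelA(wt) cells at 1 h among these groups, and Nfkbia is high at 1 h in all 3 lines.

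For the central inhibitors of NF-κB the 2 scales gave different answers. The Nfkbia response differed by -0.29 on FPKM (adjusted p = 0.90) and by -1.51 on fragments (adjusted p = 0.0036), and 1 untreated RelA(wt) library stood at 34.1 FPKM against 14.2 FPKM in the other. The Tnfaip3 response differed by -1.11 on FPKM (adjusted p = 0.37) and by -1.76 on fragments (adjusted p = 7.57e-05), with 283 and 274 FPKM in RelA(wt) cells at 1 h. Nfkbiz and Ptgs2 likewise differed on fragments only, by -1.86 and -0.91. Irf1 differed by -1.31 on FPKM (adjusted p = 0.099) and by -1.27 on fragments (adjusted p = 0.030). Vcam1 had 20.02 and 29.4 FPKM in RelA(TA2) cells at 1 h and 30.7 and 23.3 FPKM untreated, with a difference in response of -0.71 (adjusted p = 0.71) and of -0.83 on fragments (adjusted p = 0.17). The 7 genes with a smaller response on FPKM only were A930024E05Rik, Aqr, Lmbrd2, Mapk14, Mmp2, Psma4 and Snord1c, whose differences on fragments ran between -1.84 and -0.01, and Sprr2e, a cornified envelope protein gene listed at 0 in all 4 RelA(TA2) libraries, was smaller on both scales.

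Of the 14 genes with a larger response than in RelA(wt) cells, 3 (Prpf39, Xirp2 and Zfp688) were also larger on fragments. Prpf39 was at 0 in both untreated RelA(TA2) libraries and Xirp2 in 1 of them, and fragments cannot check a missing assembly. The 6 named by the rule, Tfeb, Smarca5, Txndc12, Srpr, Sucla2 and Rpl23, differed by 1.03 to 2.25 on FPKM but by -0.68 to 0.22 on fragments, with none past the test. Zfp688, at 5.19 and 6.87 FPKM in RelA(TA2) cells at 1 h and 12.4 and 7.98 FPKM untreated, did not rise. Hbegf had a larger response on fragments, with a difference of 1.88 (adjusted p = 0.023), and a difference of 1.79 on FPKM (adjusted p = 0.099). Hbegf had 44.4 and 34.3 FPKM in RelA(TA2) cells at 1 h and 11.7 and 9.66 FPKM untreated, against 22.6 and 21.4 FPKM in RelA(wt) cells at 1 h and 22.9 and 19.8 FPKM untreated. Atf3 and Klf10 followed the same pattern of a low untreated level in RelA(TA2) cells, with differences of 2.02 and 2.46 on fragments (adjusted p = 0.026 and 0.020) and of 1.93 and 2.16 on FPKM (adjusted p = 0.098 and 0.27). At 1 h the Atf3 libraries of RelA(TA2) cells, at 51.6 and 60.8 FPKM, lay below those of RelA(wt) cells, at 102 and 108 FPKM.

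**Figure D5:**
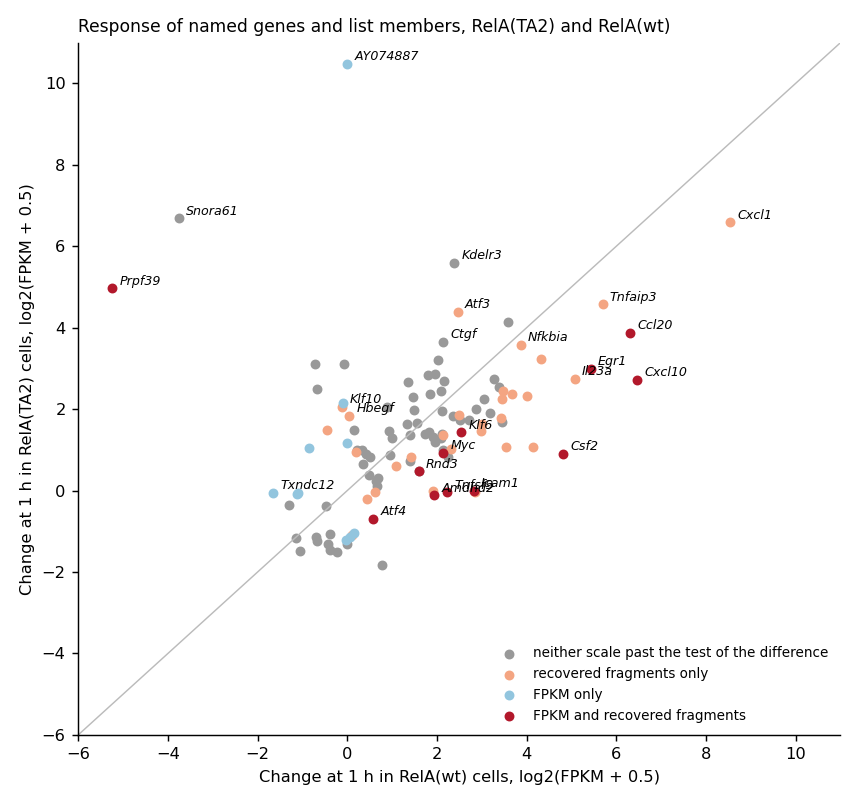
Change at 1 h in RelA(TA2) cells (y axis) and in RelA(wt) cells (x axis), log2 of FPKM + 0.5, for the 116 named genes and list members that changed in either line or differed between them. Points below the grey diagonal responded less in RelA(TA2) cells. Dark red points, Ccl20, Cxcl10, Egr1, Csf2, Icam1, Amdhd2 and Tnfsf9 among them, passed the test of the difference on both scales.

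Against RelA(Ser276Ala) cells, in which that serine cannot be phosphorylated, the response of RelA(TA2) cells was smaller for 11 genes (0.0896%) and larger for 14 (0.114%) on FPKM, and smaller for 12 (0.0978%) and larger for 42 (0.342%) on fragments. Without replicate 1 of the untreated RelA(TA2) cells these counts were 91 and 48 on FPKM and 484 and 500 on fragments, and without any other library of the 2 lines 17 to 84 and 28 to 69 genes differed on FPKM. None of the 11 was smaller on fragments as well, and 3 of the 14 (Gm6548, Prpf39 and Wdr92) were larger on both scales. Gm6548 did not rise in RelA(TA2) cells, with 14.3 and 15.8 FPKM at 1 h and 17.4 and 15.6 FPKM untreated. Prpf39 was at 0 in both untreated RelA(TA2) libraries, and fragments cannot check a missing assembly. The 4 largest smaller responses (Stra13, Smarcc2, Ttc3 and 5830415F09Rik) differed by -3.65 to -1.84 on FPKM and by 0.01 to 0.32 on fragments. Of the 4 largest larger ones, Atf6, Naa15 and Katnal2 differed by 1.66 to 3.53 on FPKM and by -1.06 to 0.03 on fragments. The remaining one was Wdr92, which had 124 and 130 FPKM in RelA(TA2) cells at 1 h and 38.2 and 31.2 FPKM untreated, against 27.9 and 25.7 FPKM in RelA(Ser276Ala) cells at 1 h and 21.99 and 21.5 FPKM untreated. Its response differed by 1.57 (adjusted p = 6.89e-04) and by 0.92 on fragments (adjusted p = 0.0020). RelA(wt) cells had 189 and 196 FPKM at 1 h and 34.7 and 32.9 FPKM untreated.

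Other genes separated the 2 mutants on fragments only. Irf1 had 36.9 and 27.5 FPKM in RelA(TA2) cells at 1 h against 10.5 and 10.7 FPKM in RelA(Ser276Ala) cells, with a larger response by 1.53 on fragments (adjusted p = 0.030) and by 1.36 on FPKM (adjusted p = 0.11). Ereg, Hk2 and Ccl20 also responded more in RelA(TA2) cells on fragments, by 1.44, 1.17 and 1.56, and Cxcl10 less, by -2.00 (adjusted p = 0.0083). For Tnfaip3 and Nfkbia the responses in the 2 mutants differed by 0.39 and -0.04 on fragments (adjusted p = 0.29 and 0.98). Tnfaip3 nonetheless stood at 167 and 158 FPKM in RelA(TA2) cells at 1 h against 55.0 and 50.7 FPKM in RelA(Ser276Ala) cells. The untreated RelA(Ser276Ala) libraries were lower too, at 2.44 and 3.01 FPKM. The part of the lower RelA(Ser276Ala) protein level in the differences between the 2 mutants was not tested.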

How the data were processed

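The authors called bases with CASAVA 1.8.2, used TopHat2 2.0.5 on Bowtie2 2.0.0.7 for mapping (mm10), and ran Cufflinks 2.0.2 for each library, per the submitters' processing notes. The deposited assemblies give FPKM with confidence limits for each transcript, not reads. Transcripts were placed on a RefSeq gene when at least 50% of their bases lay in its exons, or when they covered at least 50% of its exonic bases, and their FPKM were added up. A total of 264 genes were joined with a neighbour. Fragments were recovered as FPKM times a factor that depends on transcript length. In each library that factor was fitted from the confidence limits of assembled genes with a single transcript. Of their values under 500, 88.9% to 90.2% lay within 0.02 of a whole number. Genes with several transcripts were not covered by this check.

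Genes with at least 1 FPKM in 2 libraries were tested on log2(value + 0.5) by limma 3.58.1 (R 4.3.3), 1 mean per condition over 18 libraries, variance trend, 9 residual degrees of freedom, two-sided, Benjamini and Hochberg adjustment. A fold change on this scale understates the change of low genes. The scripts were tested on simulated data. The members, gene lists and tests were chosen with earlier results of these data known. Named genes were the 20 largest rises and 12 largest falls with no overlap and no 0, 8 risen genes at 0 untreated, up to 5 per list, the largest differences between lines (6 or 4 per direction), Rela and the genes followed by qRT-PCR in the study, of which 1 is not reported here. Alternatives were 2 other added amounts, filters, scalings, transcript choices, a fit on fewer samples, a replicate block and leaving out each library. Recovered fragments with a library left out were added after seeing the data.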

Additional observations from a re-analysis of the deposited data

Results flagged for a closer look

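These results are the largest differences in response between cell lines, up to 6 in each direction from RelA(wt) and up to 4 from RelA(Ser276Ala), among genes past the test of the difference on FPKM (limma, adjusted p under 0.05) and listed above 0 in every library compared. The value is the log2 change at 1 h in RelA(TA2) cells minus that in the other line. Against RelA(wt) cells the response was smaller on FPKM, and also past the test on fragments, for Amdhd2 (-2.06 on FPKM and -2.21 on fragments), Tnfsf9 (-2.27 and -2.26), Egr1 (-2.44 on both), Atf4 (-1.27 and -1.11) and Myc (-1.22 and -1.07). Aqr differed by -1.20 on FPKM and by -0.01 on fragments.

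The 6 largest responses above those of RelA(wt) cells in this selection did not pass on fragments. They were those of Tfeb (2.25 on FPKM and -0.68 on fragments), Smarca5 (1.90 and 0.22), Txndc12 (1.61 and -0.23), Srpr (1.18 and 0.11), Sucla2 (1.04 and -0.05) and Rpl23 (1.03 and 0.10).

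Against RelA(Ser276Ala) cells, Wdr92 had a larger response on both scales (1.57 and 0.92). Atf6 (3.53 and 0.02), Naa15 (1.91 and 0.03) and Katnal2 (1.66 and -1.06) were larger on FPKM only. Stra13 (-3.65 and 0.01), Smarcc2 (-3.64 and 0.05), Ttc3 (-2.02 and 0.07) and 5830415F09Rik (-1.84 and 0.32) were smaller on FPKM only. The cause of these differences between scales was not tested.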

How the results depend on the processing

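There were 2 libraries per condition. In the order risen and fallen in RelA(TA2) cells, smaller and larger response than RelA(wt), smaller and larger than RelA(Ser276Ala), the counts were 129, 86, 19, 14, 11 and 14. They were 442, 837, 146, 75, 12 and 42 on recovered fragments, 383, 427, 321, 286, 272 and 296 with single zeros set to missing, 56, 30, 42, 38, 21 and 43 with the compared conditions fitted alone, 147, 154, 34, 20, 19 and 24 with transcripts of at least 300 bases, 122, 66, 16, 9, 3 and 5 with the highest isoform only, and 126, 100, 34, 18, 22 and 28 without the variance trend. Median-of-ratios scaling, which moved the median change from -0.07 to 0, gave 145 risen and 65 fallen genes and 5 smaller responses than RelA(Ser276Ala). With a library left out, 129 to 179 genes rose and 66 to 257 fell, 24 to 109 and 24 to 75 differed from RelA(wt), and 17 to 91 and 28 to 69 from RelA(Ser276Ala). On fragments, leaving out replicate 1 or 2 of the untreated RelA(TA2) cells or replicate 1 or 2 of the 1 h cells gave 929, 426, 260 and 311 risen and 1474, 651, 354 and 458 fallen genes. The counts against RelA(wt) were 987, 79, 52 and 98 smaller and 748, 69, 21 and 40 larger, and against RelA(Ser276Ala) 484, 13, 16 and 32 smaller and 500, 59, 22 and 39 larger. The cause was not tested.

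With a replicate block the counts were 90, 41, 5, 6, 3 and 7. The numbers were not shown to pair samples, since same-numbered libraries of a line deviated with correlations of -0.08 to 0.11.

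On fragments the change in RelA(TA2) cells had the opposite sign for 5830415F09Rik (0.40), Aqr (0.054), Copz2 (-0.12) and Katnal2 (-0.43). It also did for Tfeb (-0.70), Ttc3 (0.039), Vill (0.040) and Atf6 (-0.089, and -0.10 with transcripts of at least 300 bases). The difference from RelA(Ser276Ala) had the opposite sign for 5830415F09Rik (0.32), Katnal2 (-1.06), Smarcc2 (0.049), Stra13 (0.0074) and Ttc3 (0.068). That from RelA(wt) did for Sucla2 (-0.048), Tfeb (-0.68) and Txndc12 (-0.23). Only the sign of the estimate is meant, and values such as 0.039 for Ttc3 and 0.0074 for Stra13 are very small. Of the single-gene results, 74 lost their call with the compared conditions fitted alone and 49 were unchanged. With the replicate block 30 lost it and 93 were unchanged, and with the highest isoform only 28 and 95. The unchanged results include some that did not pass in the main fit either.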

Other observations

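Genes whose symbol begins with Zfp, most of which encode zinc finger proteins, were often lower after 1 h of TNFα. This group was chosen after the values were seen, and it is given as a description with no test. On recovered fragments 100 of 321 tested Zfp genes fell in RelA(TA2) cells (31.2%) and 7 rose, beside 6.82% of all genes that fell. Their median log2 change was -0.34, beside -0.04 over all genes tested. With a RelA(TA2) library left out, their median change was -0.37 to -0.32, beside -0.05 to -0.04 over all genes tested. In RelA(Ser276Ala) cells 83 of the 321 fell (25.9%, beside 4.05% of all genes) and in RelA(wt) cells 55 fell (17.1%, beside 3.51%), so the pattern was not limited to RelA(TA2) cells. On FPKM 7 of the 321 fell in RelA(TA2) cells (2.18%, beside 0.701% of all genes) and 3 rose (beside 1.05% of all genes). Their median was -0.24, beside -0.07 over all genes.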
